A study of Mus musculus with 8 samples.

Results

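The small leucine-rich proteoglycans (SLRPs) examined here are the genes Bgn, Dcn, Aspn, Fmod, Lum, Prelp, Kera, Omd, Epyc and Ogn, 10 of the 43346 gene identifiers in the count files, chosen by name from classes I to III of the family and not by their values. They were measured by RNA-Seq in notochord-derived cells (NDCs) of Shh-cre;ROSA:YFP mice, in which Cre made from the Shh locus switches on yellow fluorescent protein (YFP) in Shh-expressing cells and all their descendants. At embryonic day 12.5 (E12.5), the litters NDP10.2, NPD3, NPD4 and NPD9.2 gave whole notochords dissected free of adjoining tissue. At postnatal day 0 (P0), the litters NPD26, NPD27, NPD28 and NPD30 gave nucleus pulposus (NP) cells that were shaken out of bisected thoracic and lumbar discs and sorted for YFP. Both stages carry the same alleles, no agent was given, and the animals of a litter were pooled into a single sample, so n = 4 litters per stage and single animals cannot be told apart. Stage and isolation method changed together and cannot be told apart either.

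SLRPs are secreted matrix proteins with a core of leucine-rich repeats, most of which carry chondroitin, dermatan or keratan sulfate chains. They sit on the surface of collagen fibrils, where they set fibril width and spacing and guide crosslinking, and several of them bind growth factors such as TGF-β. In the intervertebral disc they are known as the smaller companions of aggrecan, and their loss in mice is known to alter tendon, cornea, bone, cartilage and disc.

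The E12.5 litters had 4442775 to 7180221 gene counts each and the P0 litters 6371842 to 8904050, so that 3 counts, taken as the smallest usable signal, equal 0.337 to 0.675 CPM (gene counts scaled to a fixed library total). This floor covers counting error only and is taken on unscaled library totals. CPM values below use library sizes scaled by the TMM method, which balances libraries of unlike composition. On that scale 3 counts equal 0.738 CPM in NPD9.2, the litter with the smallest scaled library. Changes are log2 fold changes, P0 over E12.5, from edgeR's quasi-likelihood test of 15467 genes, with p-values adjusted over all of them, and adjusted p under 0.05 counts as a call. Their standard errors are given as SE. The notochord gene T was present in every litter, at 241.5 to 942 CPM in the E12.5 group and 574 to 2323 CPM in the P0 group, while Noto, another notochord gene, was at 0 to 0.195 CPM and 0 to 0.433 CPM. Over the whole list of 10 notochord genes, the summed level was 1911 to 5896 CPM at E12.5 and 7361 to 29265.5 CPM at P0. In NPD30, which had the highest sum, T stood at 2323, Krt8 at 854, Krt19 at 647 and Shh at 11.8 CPM. Other listed genes thus made up most of that sum. Of the 9 tested genes of this list, 2 rose and 2 fell, where 16.0% of all genes tested rose and 12.0% fell. Krt19 rose (1.74, adjusted p = 0.0267). Shh stood at 420 to 1348 CPM at E12.5 and 0.157 to 11.8 CPM at P0 (-7.14, adjusted p = 0.000742). The litters differed in RNA of other cell types. Erythroid genes (9) summed to 10036 to 49140 CPM at E12.5 and 431 to 1333 CPM at P0, and skeletal muscle genes (8) to 220 to 1149 CPM and 22.1 to 121 CPM, both highest in NPD9.2. In NDP10.2 and NPD9.2, 16.3% and 17.5% of reads were ambiguous between genes, against 7.07% to 11.6% in the other 6 litters. NPD4 had the lowest T and a sum over 8 neural marker genes of 1963 CPM, against 124.3 to 186 CPM in the other E12.5 litters and 337 to 884 CPM at P0. In NPD26, NPD27 and NPD28 a list of 12 leukocyte genes summed to 6001 to 8820 CPM, against 991 CPM in NPD30 and 72.4 to 192 CPM at E12.5. In bulk RNA, fewer cells of a type and less RNA per cell cannot be told apart.

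Of the 10 SLRP genes, 9 had enough counts to be tested and Kera did not. Bgn and Fmod rose from E12.5 to P0, Lum and Epyc fell, and Dcn, Aspn, Prelp, Omd and Ogn did not pass the test. Over all genes tested, 27.9% were called, 16.0% higher at P0 and 12.0% lower. Without overlap between the litters of the stages, Bgn and Fmod lay higher at P0 and Epyc lower, where the shares over all genes tested were 15.5% and 14.4%. The median change was 0.95 over the 9 SLRP genes and 0.04 over all genes tested.

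**Figure D1:**
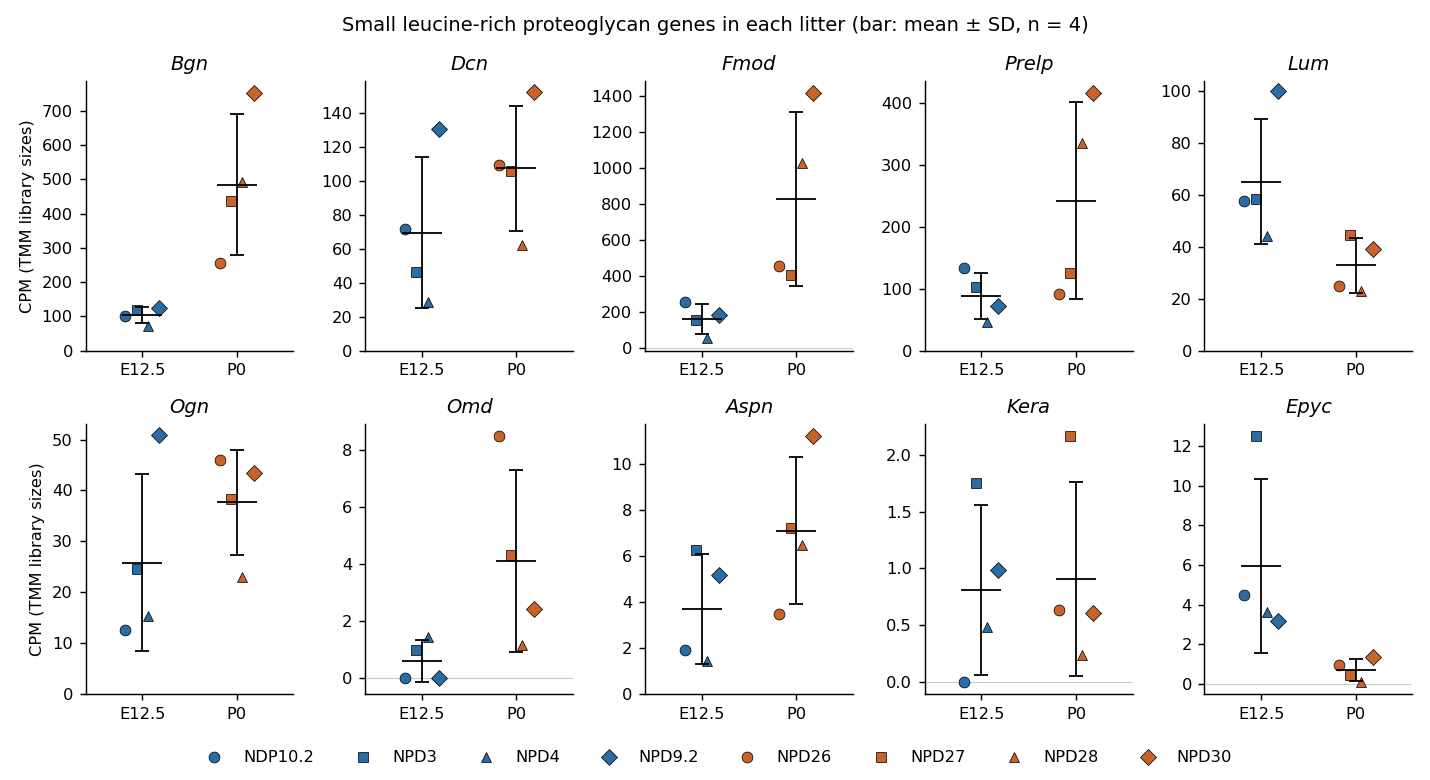
CPM of each of the 10 SLRP genes (vertical axes, 1 linear scale per gene) in the 4 E12.5 and 4 P0 litters, with the mean ± SD over litters. Every P0 litter lies above every E12.5 litter for Bgn and Fmod and below for Epyc, and the stages overlap in the other genes.

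All but Bgn stand in 3 genomic clusters on GRCm38. Prelp and Fmod are 115.839 kb apart on chromosome 1 and are read in opposite directions, with Optc, an SLRP gene of the eye, 2.304 kb beyond Prelp. On chromosome 10, Dcn, Lum, Kera and Epyc follow each other on the plus strand with gaps of 46.984, 34.175 and 30.375 kb. Chromosome 13 holds Ecm2, Aspn, Omd and Ogn, also all on the plus strand, with gaps of 11.653, 14.896 and 15.223 kb. No other protein-coding gene lies wholly within any of these gaps, and Cenpp spans the chromosome 13 cluster on the minus strand, with 7 exon bases shared with Aspn. Bgn (ENSMUSG00000031375.13) lies alone on chromosome X from 73483602 to 73495933.

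The 250 bases before the RefSeq start sites (GRCm38.p6) of Fmod, Prelp, Bgn and Epyc are shown because these are the most abundant P0 genes of the family and the gene that fell furthest. They are written 5′ to 3′ with each CG dinucleotide in capitals. The last 13 bases of the Prelp stretch lie inside its Gencode M21 gene.
Fmod (chr1:134037004-134037253, plus strand): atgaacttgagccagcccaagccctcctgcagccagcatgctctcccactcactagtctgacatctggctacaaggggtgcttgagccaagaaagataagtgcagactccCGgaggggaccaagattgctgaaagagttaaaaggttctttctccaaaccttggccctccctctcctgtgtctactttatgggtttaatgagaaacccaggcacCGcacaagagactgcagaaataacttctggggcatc
Prelp (chr1:133921402-133921651, minus strand): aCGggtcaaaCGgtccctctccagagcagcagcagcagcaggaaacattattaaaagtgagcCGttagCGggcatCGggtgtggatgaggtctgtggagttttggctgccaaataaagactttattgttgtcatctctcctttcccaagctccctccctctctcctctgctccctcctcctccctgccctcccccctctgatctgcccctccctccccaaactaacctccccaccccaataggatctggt
Bgn (chrX:73483351-73483600, plus strand): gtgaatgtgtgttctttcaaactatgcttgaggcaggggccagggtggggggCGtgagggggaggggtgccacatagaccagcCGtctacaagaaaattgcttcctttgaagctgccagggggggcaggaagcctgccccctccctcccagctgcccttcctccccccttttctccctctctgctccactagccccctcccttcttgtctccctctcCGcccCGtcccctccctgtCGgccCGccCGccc
Epyc (chr10:97643818-97644067, plus strand): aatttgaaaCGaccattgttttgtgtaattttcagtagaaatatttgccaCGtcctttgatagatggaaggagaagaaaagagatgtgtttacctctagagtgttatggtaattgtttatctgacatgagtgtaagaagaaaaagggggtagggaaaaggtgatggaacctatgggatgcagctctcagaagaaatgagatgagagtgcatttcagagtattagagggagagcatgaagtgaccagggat
G and C made up 51.2% of the Fmod stretch, 55.6% of Prelp, 64.4% of Bgn and 39.2% of Epyc, against a median of 52.4% over 32851 mouse promoters of the same length. Bgn had 7 CG dinucleotides, Prelp 5, and Fmod and Epyc 2 each, and the median over all promoters was 6. Of all promoters, 92.1% held at least 1 CG. A second annotated Epyc start has no CG in its 250 bases, which are 31.2% G and C. RefSeq start sites were matched for 8 of the 10 genes, all except Dcn and Lum. The letters TATAAA on either strand were found in 12.4% of all promoters. They had 2 matches each in Aspn and Ogn and none in the other matched genes of the 10. In Ogn the 2 matches, 1 per strand, overlap in a single stretch. These counts describe the letters only.

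Class I holds Bgn, Dcn and Aspn. Biglycan, the product of Bgn, carries chondroitin or dermatan sulfate chains and binds collagen and TGF-β. Bgn stood at 101, 120, 71.2 and 124 CPM in the E12.5 litters NDP10.2, NPD3, NPD4 and NPD9.2, and at 256, 437, 494 and 753 CPM in NPD26, NPD27, NPD28 and NPD30 of P0. NPD4 was the lowest of all litters and NPD30 the highest, and the lowest P0 litter lay above the highest E12.5 litter. The mean rose from 104.0 ± 24.1 CPM to 485 ± 205 CPM (SD, n = 4 litters each), by 2.22 log2 units (SE 0.35, adjusted p = 0.0012), or 4.66-fold. All 8 fits with a litter removed called Bgn, with changes from 1.89 to 2.44, and it was called also when tested against a fold change of 2.

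Decorin, the closest relative of biglycan, is encoded by Dcn (ENSMUSG00000019929.11, chromosome 10 from 97479609 to 97518143). Dcn stood at 71.5, 46.4, 28.9 and 131 CPM in NDP10.2, NPD3, NPD4 and NPD9.2 and at 109, 106, 62.5 and 153 CPM in NPD26, NPD27, NPD28 and NPD30. The stages overlapped, since NPD9.2 exceeded 3 of the 4 P0 litters. The log2 change of 0.64 did not pass the test (SE 0.44, 95% interval -0.33 to 1.61, adjusted p = 0.316), and the interval does not show that Dcn stayed level. Within each litter, log2 Bgn minus log2 Dcn was 0.77 ± 0.69 at E12.5 and 2.14 ± 0.72 at P0. That difference of 1.37 between stages did not pass an exact permutation test over the litters (p = 0.0857, adjusted p = 0.122 over 10 pairs of SLRP genes).

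Aspn encodes asporin, which binds collagen and TGF-β through a core protein rich in aspartate. It was the scarcest class I gene, at 1.45 to 6.24 CPM at E12.5 and 3.46 to 11.2 CPM at P0, or 8 to 32 and 22 to 74 counts. The highest Aspn value was again in NPD30, and the stages overlapped. Its log2 change was 0.95 (SE 0.56, 95% interval -0.29 to 2.20, adjusted p = 0.238). Relative to Aspn, Bgn was 1.15 log2 units higher at P0 than at E12.5, without overlap (exact permutation p = 0.0286, the smallest that 4 against 4 litters allow, adjusted p = 0.0476).

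Class II holds Fmod, Lum, Prelp, Kera and Omd, a class whose products, prolargin apart, are known for keratan sulfate or sulfated tyrosines. Fibromodulin, the product of Fmod (ENSMUSG00000041559.7, chromosome 1 from 134037254 to 134048277), binds collagen fibrils and the crosslinking enzyme lysyl oxidase. Fmod stood at 256, 155, 51.4 and 180 CPM in NDP10.2, NPD3, NPD4 and NPD9.2, and at 456, 403, 1029 and 1415 CPM in NPD26, NPD27, NPD28 and NPD30. NPD28 and NPD30 were more than 2 times as high as NPD26 and NPD27, and all P0 litters lay above all E12.5 litters. The mean rose from 161 ± 84.5 CPM to 826 ± 484 CPM, by 2.36 log2 units (SE 0.55, adjusted p = 0.00898), or 5.15-fold. All 8 fits without 1 litter called Fmod, with changes from 1.93 to 2.64.

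Prelp (ENSMUSG00000041577.5, chromosome 1 from 133910304 to 133921414) encodes prolargin, which binds collagen and the heparan sulfate of basement membranes. Prelp stood at 133, 103, 46.5 and 72.0 CPM in NDP10.2, NPD3, NPD4 and NPD9.2, and at 91.4, 126, 336 and 417 CPM in NPD26, NPD27, NPD28 and NPD30. Of its exon bases, 350 are shared with Gm15851 on the opposite strand, which had 0 to 6 counts. Reads on the shared bases cannot be told apart without strand. NPD26 and NPD27 lay within the E12.5 range, and NPD28 and NPD30 lay far above it. The log2 change of 1.45 missed the threshold (SE 0.51, adjusted p = 0.0549). The change of Prelp passed without NPD26 (1.74, adjusted p = 0.0231), without NPD27 (1.68, adjusted p = 0.0395) and in DESeq2 (1.44, adjusted p = 0.0172), a test that called 33.5% of all genes. It did not pass in the other 6 fits without 1 litter. It also passed without robust estimates (adjusted p = 0.0499) and with at least 10 counts required in every litter (0.0449). It missed in limma-voom (adjusted p = 0.0776), with no filter on low counts (0.145) and against a fold change of 2 (0.337). With DESeq2 size factors (0.0577), upper quartile scaling (0.0765) or mitochondrial and hemoglobin genes left out (0.0555), it missed as well.

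The neighbours Fmod and Prelp differed in how far they moved within the same litters. In CPM per kb of exon, the scale used here to compare genes, the ratio of Fmod to Prelp was 2.10, 1.65, 1.21 and 2.74 at E12.5 and 5.46, 3.50, 3.35 and 3.71 at P0. The ratio was thus higher in every P0 litter. On the log2 scale Fmod gained 1.09 over Prelp (exact permutation p = 0.0286, adjusted p = 0.0476).

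Lumican, the product of Lum (ENSMUSG00000036446.4, chromosome 10 from 97565128 to 97572703), binds the same stretch of collagen as fibromodulin and is best known from the cornea. Lum stood at 57.6, 58.3, 44.2 and 99.8 CPM in NDP10.2, NPD3, NPD4 and NPD9.2, and at 25.0, 44.4, 22.8 and 39.0 CPM in NPD26, NPD27, NPD28 and NPD30. The stages met at their edges, with NPD27 just above NPD4. NPD9.2, the litter with the most erythroid and muscle RNA and the most ambiguous reads, had the highest Lum, Dcn and Ogn of E12.5, and the part of these in the levels was not tested. The mean fell from 65.0 ± 24.1 CPM to 32.8 ± 10.5 CPM, a log2 change of -0.98 (SE 0.32, adjusted p = 0.0386). The call was lost without NDP10.2, NPD3, NPD9.2, NPD26 or NPD28, each left out alone, with adjusted p of 0.0524 to 0.106, and it was also lost in a test against a fold change of 2.

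Fmod and Lum thus moved in opposite directions. The difference log2 Fmod minus log2 Lum was 1.15 ± 0.82 at E12.5 and 4.50 ± 1.04 at P0, a gain of 3.34 for Fmod (exact permutation p = 0.0286, adjusted p = 0.0476). Its E12.5 values of 0.21 to 2.15 did not overlap the P0 values of 3.17 to 5.47. Dcn, the neighbour of Lum on chromosome 10, gained 1.75 log2 units over it, also without overlap (exact permutation p = 0.0286, adjusted p = 0.0476).

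Omd and Kera had the fewest counts of class II. Omd (ENSMUSG00000048368.8, chromosome 13 from 49582462 to 49592822) encodes osteomodulin, a keratan sulfate proteoglycan of bone. It had 0, 5, 12 and 0 counts in NDP10.2, NPD3, NPD4 and NPD9.2, and 54, 30, 10 and 16 counts in NPD26, NPD27, NPD28 and NPD30, or 0 to 1.45 CPM and 1.18 to 8.49 CPM. The stages overlapped in CPM because NPD4 exceeded NPD28. The log2 change was 2.55, with an SE of 0.95 and an adjusted p of 0.0676. Omd passed without NPD4 (3.44, adjusted p = 0.0448), in DESeq2 (adjusted p = 0.0246) and with no filter on low counts (adjusted p = 0.0215). The summed level of 10 osteoblast genes was 30.7 to 89.0 CPM at E12.5, where Bglap2, Dmp1 and Mepe were at 0 in every litter. At P0 it was 354, 559, 422 and 726 CPM in NPD26, NPD27, NPD28 and NPD30, so NPD26, with the highest Omd, had the lowest osteoblast sum, and its part in the level of Omd was not tested.

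Kera encodes keratocan, the keratan sulfate proteoglycan of the corneal stroma. It had 0, 9, 4 and 4 counts at E12.5 and 4, 15, 2 and 4 counts at P0, below the filter. With no filter its log2 fold change was 0.14 (adjusted p = 0.941, where 15.2% of genes were called). Relative to Epyc, its neighbour, which fell, Kera was 2.76 log2 units higher at P0 than at E12.5 (exact permutation p = 0.0286, adjusted p = 0.0476). That size rests on few counts and was 3.54 with a prior count of 0.5 in place of 2. Relative to Lum, which also fell, Kera was 1.17 higher, which did not pass (exact permutation p = 0.114, adjusted p = 0.127). At these counts a change in Kera was not detectable.

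**Figure D2:**
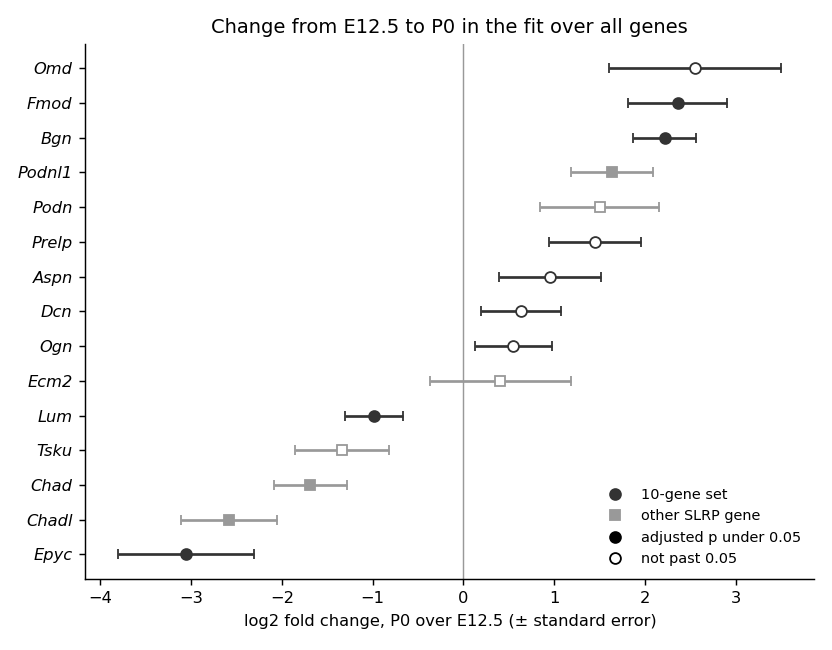
Log2 fold change, P0 over E12.5, with its standard error for the 9 SLRP genes tested (circles) and 6 other SLRP genes (squares). Filled symbols have an adjusted p under 0.05: Fmod, Bgn and Podnl1 to the right of 0, and Lum, Chad, Chadl and Epyc to the left.

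Class III holds Epyc and Ogn. Epiphycan, the product of Epyc (ENSMUSG00000019936.6, chromosome 10 from 97644068 to 97682454), is a dermatan sulfate proteoglycan of growth cartilage. Epyc had 19, 64, 30 and 13 counts in NDP10.2, NPD3, NPD4 and NPD9.2, and 6, 3, 1 and 9 counts in NPD26, NPD27, NPD28 and NPD30, which is 4.48, 12.5, 3.63 and 3.20 CPM against 0.944, 0.433, 0.118 and 1.36 CPM. NPD3 stood above the other E12.5 litters, and the stages did not overlap. The log2 change was -3.06 (SE 0.75, adjusted p = 0.011), or 8.31-fold lower, and each of the 8 fits without 1 litter called it, at -2.42 without NPD3. NPD27 and NPD28 held 3 counts or fewer, so depth limits the size of the fall. Of the Epyc exon bases, 40.6% are shared with Gm10754, a gene on the opposite strand that had 0 counts in every litter. The strand setting of the counting is not known, so those 0 counts do not show whether Epyc lost reads on the shared bases.

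Ogn (ENSMUSG00000021390.5, chromosome 13 from 49608046 to 49624501) encodes osteoglycin, also called mimecan, which modifies collagen fibrils in skin, cornea and bone. Ogn stood at 12.5, 24.6, 15.4 and 50.9 CPM in NDP10.2, NPD3, NPD4 and NPD9.2, and at 46.1, 38.4, 23.0 and 43.4 CPM in NPD26, NPD27, NPD28 and NPD30. NPD9.2 was the highest of all 8 litters, and the stages overlapped. The log2 change was 0.55 (SE 0.42, 95% interval -0.39 to 1.49, adjusted p = 0.371), and without NPD9.2 it was 1.07 (adjusted p = 0.0538). Within litters the P0 minus E12.5 change of Epyc relative to Ogn was -3.27 log2 units (exact permutation p = 0.0286, adjusted p = 0.0476).

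Of the 10 pairs of SLRP genes compared within litters, which share a class or are neighbours, 6 passed the test for an unequal change. All 6 stood at the smallest possible exact permutation p of 0.0286, with an adjusted p of 0.0476. Adjustment over 10 pairs needs at least 6 of them at that p, so each call depends on the others, and several pairs share a gene. No pair passed when NDP10.2, NPD26, NPD27, NPD28 or NPD30 was left out alone. Besides Bgn with Dcn and Lum with Kera, the pairs Ogn with Omd (-1.66 for Ogn, exact permutation p = 0.114) and Omd with Aspn (1.38 for Omd, exact permutation p = 0.286) did not pass. In the chromosome 10 cluster Lum and Epyc fell, Dcn did not pass and Kera was not tested, and the changes ran from 0.64 for Dcn to -3.06 for Epyc. In the chromosome 13 cluster all 3 SLRP genes of the set had changes above 0, from 0.55 to 2.55, and none passed.

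**Figure D3:**
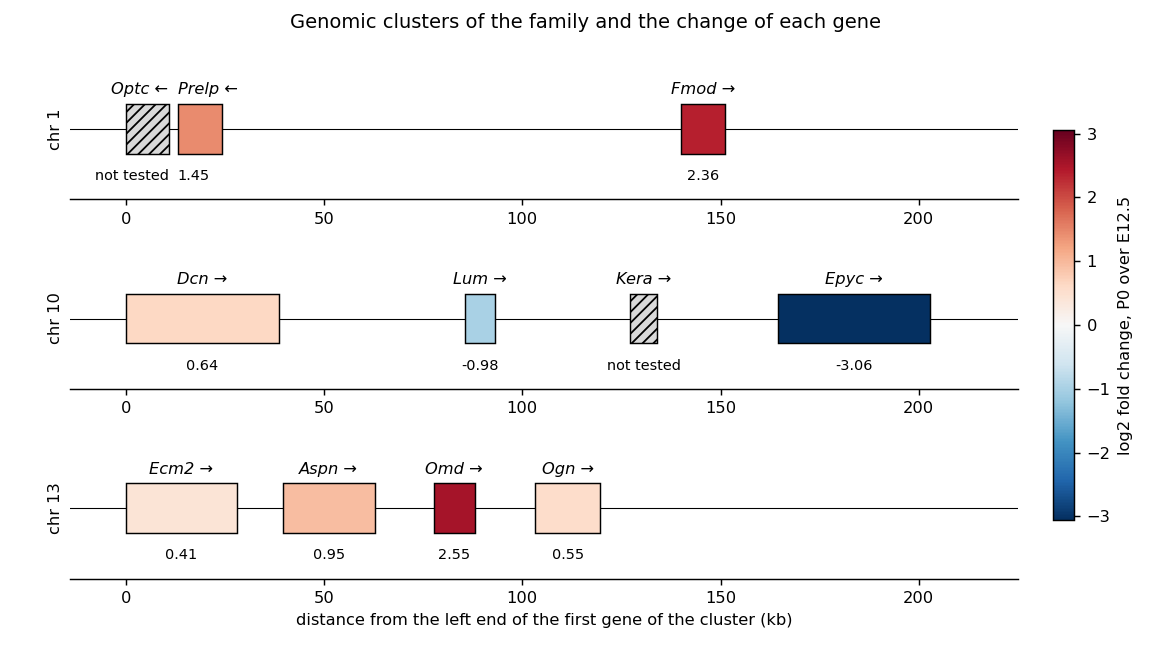
The SLRP clusters on chromosomes 1, 10 and 13, drawn to scale by distance from the left end of the first gene (kb), with arrows for the direction of reading and the log2 fold change, P0 over E12.5, as fill colour and number. Fmod at 2.36 and Prelp at 1.45 share the chromosome 1 cluster, and Dcn at 0.64, Lum at -0.98 and Epyc at -3.06 share the chromosome 10 cluster.

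Levels of different genes were compared in CPM per kb of merged exons. At E12.5 Fmod led at 48.6 ± 25.6, ahead of Lum at 26.6 ± 9.85, Prelp at 24.5 ± 10.4, Bgn at 17.1 ± 3.95, Dcn at 11.9 ± 7.62 and Ogn at 10.1 ± 6.82. Epyc at 2.32 ± 1.72, Aspn at 1.57 ± 1.01, Kera at 0.353 ± 0.329 and Omd at 0.270 ± 0.323 formed the low end. Each neighbour in this order overlapped the next in range, and only Ogn over Epyc and Aspn over Kera held in all 4 E12.5 litters.

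At P0 Fmod again led, at 249.7 ± 146 CPM per kb, and exceeded Bgn in all 4 litters. Bgn at 79.5 ± 33.6 and Prelp at 67.1 ± 43.9 came next and overlapped, with Bgn higher in 3 of 4 litters. Dcn at 18.4 ± 6.30, Ogn at 14.7 ± 4.03 and Lum at 13.4 ± 4.30 overlapped as well. The range of Lum lay wholly above that of Aspn, at 3.01 ± 1.36. Omd at 1.83 ± 1.42, Kera at 0.398 ± 0.375 and Epyc at 0.279 ± 0.215 were lowest. By merged exons Lum thus stood in place 2 at E12.5 and place 6 at P0, and Epyc in places 7 and 10. The place of Bgn at E12.5 depends on the length used, since its longest single transcript has 2666 bases against 6099 in its merged exons. Per kb of longest transcript Bgn stood at 39.0 at E12.5, above Lum at 26.6, and at 182 at P0, so that with this length Lum was below Bgn at both stages.

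The sum over the 10 genes was 174, 145, 72.0 and 182 CPM per kb in NDP10.2, NPD3, NPD4 and NPD9.2, and 258, 286, 517 and 732 CPM per kb in NPD26, NPD27, NPD28 and NPD30. NPD4 had the smallest sum and NPD30 the largest. Fmod, Prelp and Bgn made up 52.2% to 75.2% of it at E12.5 and 79.6% to 93.7% at P0. Fmod alone went from a mean share of 32.1% ± 9.47 to 53.7% ± 7.88, and Lum from 19.4% ± 5.33 to 3.57% ± 2.08. The share of Prelp was 17.4% ± 4.49 and 13.9% ± 3.64, so the stages differed by less than 1 SD in it.

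**Figure D4:**
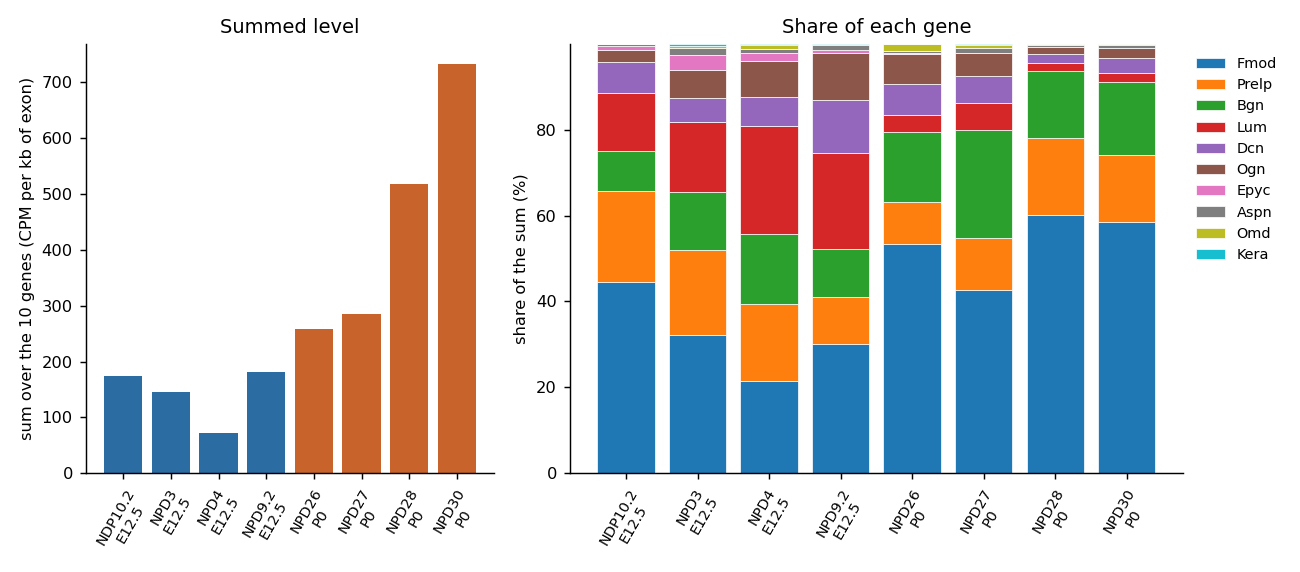
Left, the sum of the 10 SLRP genes in each litter in CPM per kb of exon (blue E12.5, orange P0), and right, the share of each gene in that sum (%). The sum runs from 72.0 to 182 in E12.5 litters and from 258 to 732 in P0 litters, and Lum, in red, takes 13.5% to 25.1% of it at E12.5 and 1.8% to 6.35% at P0.

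Marker genes of the NDCs and of other cells were read beside these levels. Across the litters in the order above, T stood at 942, 790, 241.5 and 362 CPM and at 1007, 574, 1372 and 2323 CPM, a change that was not called (1.18, adjusted p = 0.117). Acan, the gene of aggrecan, stood at 892, 537, 164 and 328 CPM and at 895, 646, 2482 and 3603 CPM. NPD4 was lowest and NPD30 highest for T, Acan, Fmod, Prelp and Bgn alike, while NPD30 had the lowest leukocyte sum of the P0 litters. The osteoblast sum given beside Omd was also highest in NPD30 and lowest in NPD26, as Bgn was among P0 litters. Of the 7 osteoblast genes tested, 6 rose, where 16.0% of all genes tested rose and 12.0% fell. At P0 the summed level of 10 tendon and fibroblast genes was 3251 to 11918 CPM, against 907 to 2720 CPM at E12.5. Col1a1, a collagen gene of this list, made up most of the P0 sum, at 2845 to 11487 CPM. At E12.5 Col1a1 stood at 235 to 1272 CPM. Of the 8 tendon and fibroblast genes tested, only 1 rose and 4 fell. The sclerotome list of 8 genes went from 140.6 to 218.6 CPM at E12.5 to 8.0 to 24.5 CPM at P0, and all 8 fell, as Lum and Epyc did. The chondrocyte list summed to 2948 to 10445 CPM at E12.5 and to 2339 to 10027 CPM at P0. Of the 9 chondrocyte genes tested, 3 rose and 1 fell. The part of these cell types in the SLRP changes was not tested.

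**Figure D5:**
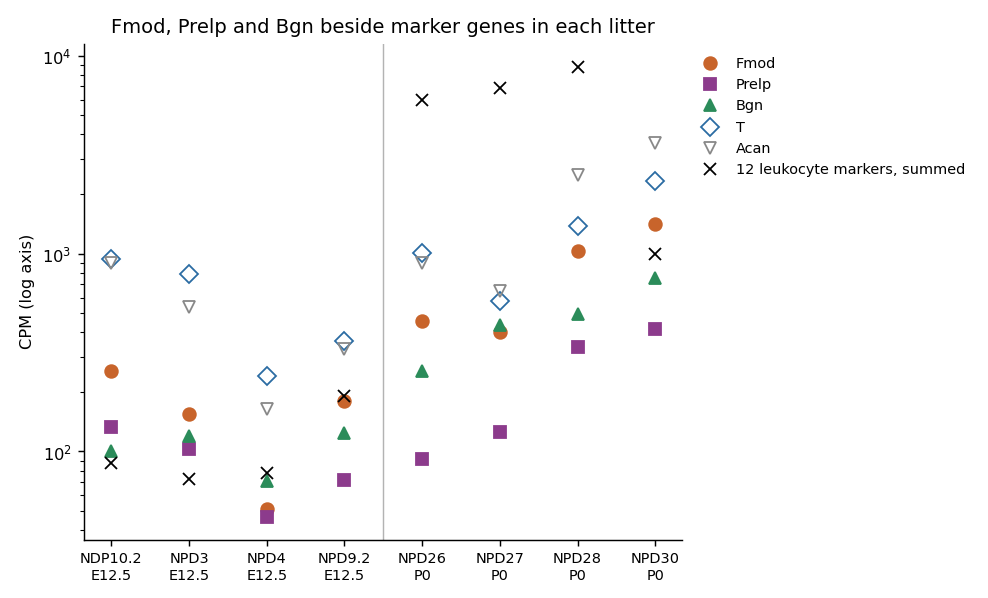
CPM (log axis) of Fmod, Prelp and Bgn (filled), of T and Acan (open) and of the sum of 12 leukocyte genes (crosses) in each litter. NPD4 is lowest among the litters for Fmod, Prelp, Bgn, T and Acan and NPD30 is highest, while the leukocyte sum is 991 CPM in NPD30 and 6001 to 8820 CPM in the other P0 litters.

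Over the 8 litters, the genes whose log2 CPM followed an SLRP gene most closely were looked up among tested genes with a mean log2 CPM of at least 2. Fmod was closest to Lamb3, a laminin subunit gene (Pearson r = 0.998), then Lzts3 (0.989) and Htra3 (0.987). Bgn was closest to Col1a2, a chain of type I collagen (0.985), Tmem56 (0.983) and Bhlhe41 (0.976), and Prelp to P4ha3, a collagen prolyl hydroxylase gene (0.986), Gramd2 (0.978) and Cobll1 (0.977). Lum followed Shisa3 (0.971), Hdac6 (0.966) and Pdgfrb (0.965). Dcn followed Cryab (0.951), Acta2 (0.943) and Csrp1 (0.934), Ogn followed Rhpn2 (0.973), Sgsm1 (0.925) and Stoml1 (0.919), and Aspn followed Ccdc28a (0.963), Ccn4 (0.931) and Wdr45 (0.918). The list of Epyc (Nlgn1, Ssbp2 and Psmd7, 0.983 to 0.969) rests on few counts of the SLRP gene. Among the SLRP genes themselves, r was 0.926 for Bgn with Fmod, 0.918 for Fmod with Prelp and 0.835 for Bgn with Prelp. These values describe 4 litters of each of 2 stages, and r was not computed within stages.

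Further SLRP genes outside the 10 were read in the same fit. Chondroadherin binds integrins in cartilage, and its gene Chad fell from 33.4 ± 16.3 CPM to 10.3 ± 3.71 CPM (log2 fold change -1.69, adjusted p = 0.00954). Chadl, its relative, fell from 20.5 ± 14.0 CPM to 3.41 ± 1.48 CPM (-2.58, adjusted p = 0.00461), and 1023 of its exon bases are shared with L3mbtl2 on the opposite strand, where reads cannot be told apart without strand. Podnl1, a podocan-like gene, rose from 2.39 ± 0.907 CPM to 7.59 ± 2.23 CPM (1.64, adjusted p = 0.0198). That call was lost without NPD9.2 (adjusted p = 0.0537), without NPD30 (adjusted p = 0.0592) and against a fold change of 2 (adjusted p = 0.165). Tsku (-1.33, adjusted p = 0.0782), Podn (1.50, adjusted p = 0.112) and Ecm2 (0.41, adjusted p = 0.735) did not pass, and Optc and Nyx, both known from the eye, were below the filter.

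The collagens that SLRPs coat moved in both directions. Of 11 fibrillar collagen genes, 3 rose and 3 fell, and 5 did not pass, with a median change of -0.31, where 16.0% of all genes rose and 12.0% fell. Col1a1 rose from 751 ± 527 CPM to 6966 ± 3537 CPM (3.21, adjusted p = 0.00402) and Col1a2 by 2.51 (adjusted p = 0.00188), both chains of type I collagen. The osteoblast sum had the same order over the P0 litters as Col1a1, and its part was not tested. Col27a1 (-2.81, adjusted p = 0.00128) and Col3a1 (-1.99, adjusted p = 0.00514) fell furthest. Of 9 collagen VI and fibril-associated collagen genes, 2 rose and 5 fell, with a median of -1.50. The collagen VI chains Col6a1 (3.03, adjusted p = 0.00304) and Col6a2 (2.62, adjusted p = 0.00854), which bind biglycan and decorin, rose, and Col9a2 (-4.43, adjusted p = 8.69e-05) and Col9a1 (-2.94, adjusted p = 0.00158), which coat type II collagen fibrils, fell.

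Genes for the chains and sulfate groups of SLRPs were called at about the share of all genes tested. Of 20 linkage region, chondroitin and dermatan sulfate enzyme genes, 4 rose, 1 fell and 15 did not pass, or 25.0% called against 27.9% over all genes. Chst12, a chondroitin sulfotransferase gene (2.11, adjusted p = 0.00443), and Csgalnact1, which starts the chondroitin chain (2.02, adjusted p = 0.0154), rose most, and Chsy1, a chondroitin synthase gene, fell (-1.15, adjusted p = 0.00623). Of 8 tested keratan sulfate and tyrosine sulfation genes among 10 listed, Tpst2, a tyrosine sulfotransferase gene, rose (1.39, adjusted p = 0.00834) and Chst2 fell (-1.57, adjusted p = 0.00131), which is 25.0% called.

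Among 16 genes for growth factors and receptors that SLRPs bind, 5 rose and 2 fell, where 16.0% of all genes rose and 12.0% fell. Tnf (4.93, adjusted p = 0.00454) and Tlr4 (4.41, adjusted p = 0.000407) rose most. Tnf had 0, 1, 0 and 5 counts at E12.5, mostly under the floor, and its change ran from 4.36 to 6.96 when each litter was left out, so depth limits its size. Both are also expressed by leukocytes, and both were lowest in NPD30 among the P0 litters, as the leukocyte sum was. Tlr4 stood at 17.3 CPM in NPD30 and at 58.5 to 88.1 CPM in the other P0 litters. The part of leukocytes in the changes of Tnf and Tlr4 was not tested. Erbb4 (-1.93, adjusted p = 0.0047) and Bmp4 (-1.65, adjusted p = 0.00321) fell furthest.

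Of 11 protease genes known to cut SLRPs, 8 were tested, 3 rose and 3 fell, against 16.0% and 12.0% of all genes. Mmp13 had 1, 1, 0 and 0 counts at E12.5, under the floor, and 102 to 197 CPM at P0 (adjusted p = 1.13e-05). Mmp9 rose from 2.66 ± 0.933 CPM to 90.5, 111, 150 and 1059 CPM in NPD30, NPD26, NPD27 and NPD28 (7.08, adjusted p = 0.000911), with 1 P0 litter far above the rest. Mmp2 (-2.37, adjusted p = 0.000317) and Bmp1 (-1.04, adjusted p = 0.0231) fell. Bmp1, which cleaves the biglycan precursor, was called in 4 of the 8 fits without 1 litter. Of 13 fibril assembly and crosslinking genes, 2 rose, 1 fell and 10 did not pass, or 23.1% called, near the 27.9% over all genes. Tnxb (6.09, adjusted p = 0.000482) and Lox (2.08, adjusted p = 0.00252), whose enzyme fibromodulin binds, rose. Serpinh1, a collagen chaperone gene, fell (-1.19, adjusted p = 0.0222), in 4 of the 8 fits without 1 litter. Tnxb had 6, 2, 13 and 1 counts at E12.5, partly under the floor. Its change ran from 5.43 to 6.59 when each litter was left out, so depth limits its size.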

How the data were processed

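RNA was taken from 4 E12.5 and 4 P0 litters. Per the paper, the authors mapped reads to GRCm38 (the submitters' notes name STAR 2.4.0j, HTSeq and both GRCm38.p3 and mm9), used Gencode M4 for counting and deposited raw counts. The strand setting of the counting is not given in the sources used here. The HTSeq summary lines, such as reads on no gene, were left out, and reads on genes were 22.6% to 34.8% of reads tallied. Of 43346 identifiers, 42462 matched a symbol and 884 did not. Positions and exon lengths are from Gencode M21, a later annotation of the same build, and promoters from RefSeq.

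Counts were fitted in R 4.3.3 with edgeR 4.0.16 (TMM, filterByExpr with a minimum count of 10 and total of 15, robust quasi-likelihood F-test, Benjamini-Hochberg adjustment). A standard error is the change divided by the square root of F, and a 95% interval uses the fit's degrees of freedom. Pairs were tested with a two-sided exact permutation test of log2 CPM differences (prior count 2). DESeq2 1.42.0, limma 3.58.1 (voom), other scalings and filters, and litters left out were alternatives. In simulated data of this comparison (15467 genes, 200 changed), edgeR recovered 18% of 2-fold, 78% of 4-fold and 96% of 8-fold changes. Of its calls, 4.58% were unchanged genes, against 17.7% of DESeq2's. The simulation changed far fewer genes than the 4321 called in the data and gave genes of like level the same spread. These shares therefore may not hold for the data. Named are the 10 SLRP genes and 8 relatives, per other list the 2 largest rises and falls called, and the 3 closest genes by r, which are not reported here for Omd. Further genes, such as T and Acan, are markers. The genes and lists were chosen with earlier results of these data known. Nothing in the labels says that litters were handled on the same days across stages. Replicates are separate litters.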

Additional observations from a re-analysis of the deposited data

Results flagged for a closer look

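Among 38 groups of 4 litters examined (18 SLRP genes and the sum over the 10, at each stage), 2 held a litter that stood apart from the other 3 by a larger gap than Dixon's 95% limit allows, and chance alone flags about 1 in 20 groups. Epyc reached 12.5 CPM in the E12.5 litter NPD3, against 3.2 to 4.48 CPM in the other E12.5 litters, a gap of 0.862 of the range. Podn reached 2.83 CPM in the E12.5 litter NDP10.2, or 12 counts, against 0.585 to 0.846 CPM in the others, a gap of 0.884 of the range. No cause was tested for either.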

How the results depend on the processing

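Of 167 alternative values for the changes of single SLRP genes of the 10, none changed direction, 149 stayed on the same side of the threshold, 9 fell short of it and 9 newly passed it. Bgn and Fmod were called in every alternative fit run, and Epyc in every fit that tested it except the one without NPD26 and NPD27. The number of SLRP genes higher at P0 was 2, and 4 with DESeq2 (Bgn, Fmod, Prelp and Omd), and it was 2 to 3 when each litter was left out. Without the P0 litters NPD26 and NPD27 it was 3 (Bgn, Fmod and Prelp). The number lower was 2. It was 1 with at least 10 counts in every litter (Lum, since Epyc was not tested), 1 against a fold change of 2 (Epyc), 1 without the E12.5 litters NDP10.2 and NPD9.2 and 0 without the P0 litters NPD26 and NPD27, both sets of litters chosen after seeing the data (the E12.5 set has the most ambiguous reads and erythroid RNA), and 1 to 2 when each litter was left out. Over all genes 4321 were called. The count was 1928 against a fold change of 2, 2581 without NDP10.2 and NPD9.2 and 2875 without NPD26 and NPD27, fits with fewer litters, and 3612 to 4529 when each litter was left out. Of the genes of the other lists 39 were called, 24 against a fold change of 2, and 32 to 40 when each litter was left out. By list, 23.1% to 77.8% of the tested genes were called in the main fit, against 27.9% over all genes. Against a fold change of 2 the count over all genes fell as well, as given above. Ecm2, not called, turned from 0.41 to -0.082 without NPD26 and NPD27, and ran from -0.022 (without NDP10.2) to 0.67 when each litter was left out. Of 10 pairs 6 passed, and 0 to 7 passed when each litter was left out: the smallest p is then also 0.0286, and adjustment over 10 pairs needs at least 6 of them to reach it. Upper quartile scaling moved the median change of all genes from 0.04 to -0.11 and the share of calls that were higher from 57.1% to 47.5%, with the same 4 SLRP genes called. The summed levels at E12.5 and P0 moved by less than 1 SD with other lengths or without TMM. No paired analysis was possible because the labels give the stages no shared replicate numbers. Depth limits Kera, Omd and the P0 values of Epyc.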
